A study of Homo sapiens with 45 samples.

Results

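The comparison described here set Jurkat cells that had received guides against both ARID1A and ARID1B (gARID1A_1B) against Jurkat cells that had received guides against ARID1A (gARID1A). The samples were chosen by their labels, and they make up 6 of the 45 RNA-seq libraries of the study, 3 in each group. Jurkat is a human line of T-cell acute lymphoblastic leukaemia (T-ALL). In both groups the cells expressed Cas9, carried guides delivered by lentivirus, were kept in puromycin for 4 days and gave poly(A) RNA on day 10. Jurkat cells handled in the same way with guides against AAVS1 (gAAVS1, 3 libraries), a site on chromosome 19 commonly used as a control target, give the control level. Cells given guides against SMARCA4 and SMARCA2 (gSMARCA4_A2) and cells given guides against SMARCA4 (gSMARCA4), 3 libraries each, are used for the parallel question on the ATPase pair. Jurkat cells kept in 1 uM BRM014, an inhibitor of both ATPases, for 6 h or 8 days and cells kept in 0.01% DMSO as its vehicle for the same times, 3 libraries each, give a further comparison. The libraries came from bulk populations, which can mix cells with and without a disrupted allele, and protein was not measured. In such bulk samples a smaller share of cells with an mRNA and less of that mRNA per cell cannot be told apart.

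ARID1A and ARID1B are alternative subunits of cBAF, a form of the SWI/SNF complex that uses ATP to slide and evict nucleosomes and so keeps enhancers accessible. A cBAF particle holds a single ARID1 protein, ARID1A or ARID1B, and a single ATPase, SMARCA4 or SMARCA2. The ARID1 protein joins the catalytic module to the core, and cells that lose ARID1A are known to come to depend on ARID1B. The related complexes PBAF, with ARID2, and ncBAF, with BRD9, contain no ARID1 protein. The comparison asks which mRNAs still moved when the second ARID1 gene was targeted on top of the first.

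The 3 gARID1A_1B libraries held 40.4 to 45.2 M reads on genes, the gARID1A libraries 40.9 to 47.4 M reads and the gAAVS1 libraries 29.7 to 47.9 M reads, which makes counting error a minor part of the spread for well-expressed genes. Levels are in TPM, a read count scaled for gene length and library depth. Replicates of a group differed by more than counting noise. Chi-square divided by its degrees of freedom was 4.09 to 5.95 among gARID1A_1B libraries and 5.54 to 14.9 among gARID1A libraries, where replicate 1 stood apart from the other two. Labels call the libraries biological replicates without saying whether the transductions were separate, so p-values measure the spread between these samples. All 11 T-lineage markers were tested, and they summed to 1797 to 1856 TPM in gARID1A_1B libraries and 1557 to 1704 TPM in gARID1A libraries. Myeloid markers summed to 3.92 to 4.39 TPM in gARID1A_1B and 3.06 to 4.04 TPM in gARID1A, and 10 of 11 myeloid genes were too low to test. B cell markers summed to 14.4 to 14.9 TPM in gARID1A_1B and 15.0 to 17.0 TPM in gARID1A. Erythroid and megakaryocyte markers summed to 13.5 to 17.4 TPM in gARID1A_1B and 12.8 to 13.5 TPM in gARID1A. Epithelial and fibroblast markers reached 401 to 443 TPM in gARID1A_1B and 485 to 499 TPM in gARID1A, nearly all of it VIM, which T-ALL cells also express. The mitochondrial share of all TPM was 22.7 to 24.9% in gARID1A_1B libraries and 21.2 to 22.9% in gARID1A libraries. Their part in the results was not tested beyond leaving those genes out.

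The targets came first. ARID1B mRNA (chromosome 6, 156776026 to 157210779, hg38) stood at 12.9, 11.8 and 10.9 TPM in the 3 gARID1A_1B libraries, against 21.7, 22.5 and 22.4 TPM in gARID1A and 23.2, 22.7 and 22.2 TPM in gAAVS1. The groups did not overlap, and the level was low in gARID1A_1B alone, with gARID1A close to gAAVS1. Its log2 fold change was -0.85 ± 0.06 (adjusted p = 4.2e-10). Fold changes here are limma estimates on log2(TPM + 1), which understates the change of genes near or under 1 TPM, and each is given with its standard error. ARID1A mRNA (chromosome 1, 26696015 to 26782104) was at 106, 102 and 95.9 TPM in gARID1A_1B, above the 79.2, 85.0 and 85.0 TPM of gARID1A. It rose by 0.28 ± 0.05 (adjusted p = 0.00016), and the transcript was abundant in both groups. The gARID1A_1B libraries also lay above the 93.8 to 95.1 TPM of gAAVS1, though that difference was not called (0.10, adjusted p = 0.096).

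**Figure D1:**
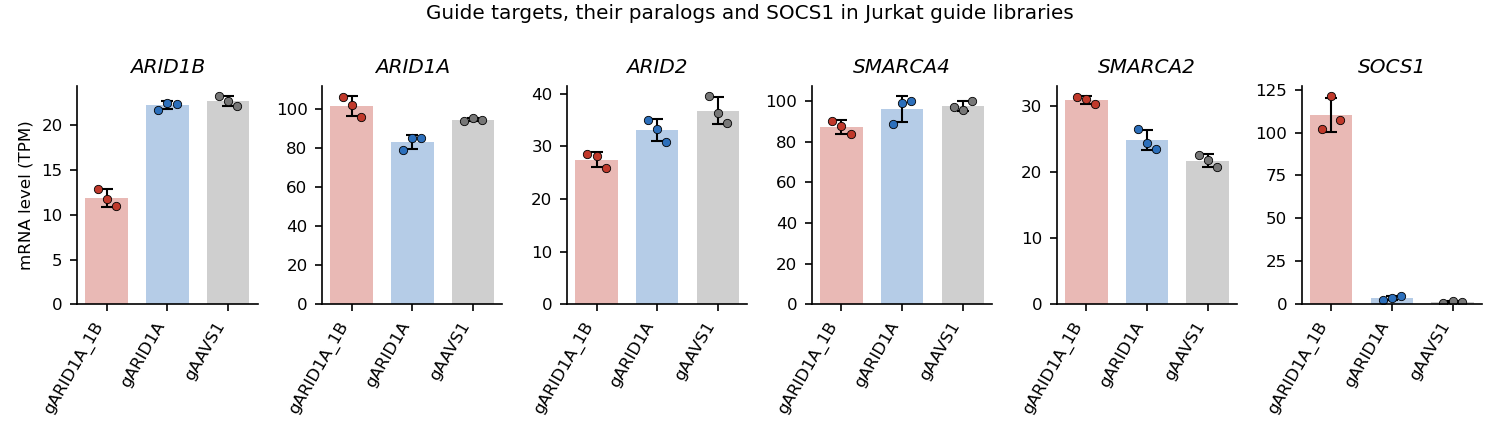
mRNA level in TPM of the guide targets ARID1B and ARID1A, the related subunits ARID2, SMARCA4 and SMARCA2, and SOCS1, in the 3 libraries (points) of gARID1A_1B, gARID1A and gAAVS1, with bars for the mean and error bars for the SD. ARID1B was at 11.9 TPM in gARID1A_1B against 22.2 TPM in gARID1A, and SOCS1 at 110 TPM against 3.78 TPM.

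The other subunits moved little. Of 21 cBAF subunit genes tested, 3 were called higher and 4 lower, with a median log2 fold change of -0.03 beside -0.0016 over all genes tested (0.0096 for the list with mitochondrial genes left out). Over all 17936 genes tested, 10.3% were called higher and 10.6% lower. SMARCA2, the second ATPase, was at 31.4, 31.0 and 30.3 TPM in gARID1A_1B against 26.6, 24.5 and 23.6 TPM in gARID1A (0.30 ± 0.07, adjusted p = 0.0044), and gAAVS1 lay lower still at 21.8 ± 0.931 TPM (SD, n = 3). SMARCA4 averaged 87.3 TPM in gARID1A_1B and 96.0 TPM in gARID1A with overlapping libraries, and it was not called (adjusted p = 0.1). DPF3, a cBAF subunit that reads histone marks, was lower by 0.33 (2.59 TPM in gARID1A_1B against 3.49 TPM in gARID1A), a call lost without gARID1A_1B replicate 3, gARID1A replicate 1 or gARID1A replicate 2. Of 7 genes specific to PBAF or ncBAF, 1 was higher and 2 lower. ARID2 was at 27.5 ± 1.44 TPM in gARID1A_1B and 33.1 ± 2.11 TPM in gARID1A (-0.26 ± 0.08, adjusted p = 0.031), a call that was lost under 6 settings, among them 4 that left out 1 library. BICRAL, an ncBAF subunit, rose by 0.41 and BRD9 fell by 0.19. Counts of cBAF members called lower ranged between 1 and 4 when libraries were left out in turn, the lowest without gARID1A_1B replicate 3 or gARID1A replicate 2.

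Over the whole table, 3749 of 17936 genes tested were called at an adjusted p under 0.05 (20.9%), 1854 of them higher (10.3%) and 1895 lower (10.6%) in gARID1A_1B. All 3 libraries of gARID1A_1B lay beyond all 3 of gARID1A in 7210 genes (40.2%). Most changes were small, and at a change of at least 2-fold 71 genes were higher (0.396%) and 49 lower (0.273%). The balance of directions depended on the scaling. Leaving out mitochondrial genes gave 2777 higher and 1411 lower, and limma-voom on recovered reads gave 2765 higher and 1849 lower. Without gARID1A_1B replicate 3 the genes called lower numbered 1205.

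**Figure D2:**
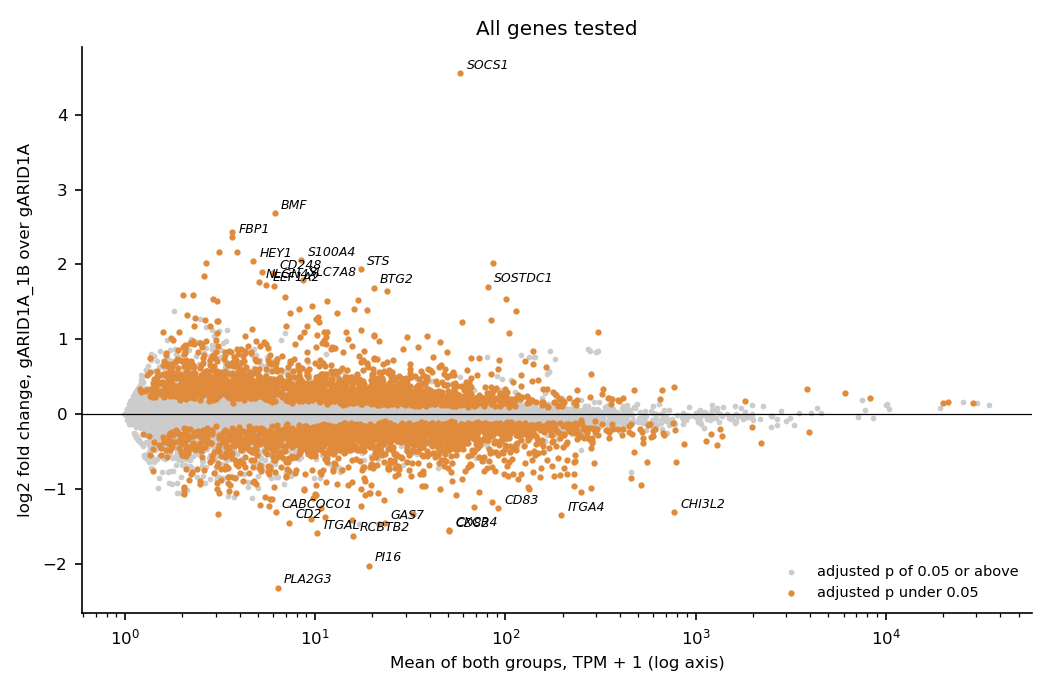
Each point is 1 of 17936 genes tested, with the mean TPM + 1 of gARID1A_1B and gARID1A on a log axis and the log2 fold change of gARID1A_1B over gARID1A; orange points have an adjusted p under 0.05, and the 12 largest increases and 12 largest decreases among protein-coding genes are named. SOCS1 at 4.56 stands alone above BMF at 2.69, and PLA2G3 at -2.32 is the lowest named gene.

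SOCS1 had the largest increase on the log2(TPM + 1) scale. This gene, a feedback inhibitor that binds JAK kinases and dampens interferon and cytokine signalling (chromosome 16, 11254417 to 11256204), was at 102, 121 and 107 TPM in gARID1A_1B. In gARID1A it was at 2.60, 3.93 and 4.81 TPM, and in gAAVS1 at 0.99, 1.72 and 1.36 TPM. The 3 groups formed separate steps, of which the second was much the larger. With 2046 to 2650 reads per gARID1A_1B library against 52 to 100 per gARID1A library, the difference was 4.56 ± 0.22 on the log2 scale (adjusted p = 8.3e-12). The gARID1A increase over gAAVS1 was 1.00 ± 0.22 (adjusted p = 0.0022).

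Other members of the JAK-STAT and cytokine feedback list moved much less. Of 24 tested, 7 rose and 1 fell, with a median of 0.10. JAK1 rose by 0.26 and SOCS5 by 0.36. IL7R, a cytokine receptor chain that supports T-cell survival, was the decrease, at 1.39 ± 0.171 TPM in gARID1A_1B against 2.76 ± 0.252 TPM in gARID1A (-0.66 ± 0.10, adjusted p = 4.4e-05).

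Genes of the interferon response rose more often than they fell. Of 28 tested, 12 were higher and 3 lower, a median of 0.18. IFIT3, which blocks translation of viral RNA together with IFIT1, led with 10.5, 9.08 and 8.71 TPM in gARID1A_1B against 3.18, 2.15 and 2.29 TPM in gARID1A. The groups did not overlap, and gAAVS1 was lower again at 0.823, 0.750 and 0.476 TPM. The increase was 1.56 ± 0.10 (adjusted p = 2.1e-10). IFIT2 followed with 0.58, SAMD9L with 0.43, OAS2 with 0.42 and IFIT1 with 0.38. Against the direction of the list, IFI44 fell by 0.67, at 1.98 TPM in gARID1A_1B against 3.73 TPM in gARID1A. IFIT1, IFIT2 and IFIT3 overlap LIPA, whose log2 fold change was -0.0016 (adjusted p = 0.99). The library kit kept no strand, so reads from a stretch shared with LIPA cannot be assigned to a single gene. With 1 library left out, 10 or 11 interferon genes were higher and 2 or 3 lower.

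The 250 bases before the start of SOCS1, IFIT3 and IFIT1 are shown because these genes rose and hold the same kind of motif, for which they were picked. IFIT2 is not shown, SAMD9L, which also rose, held no match, and IFI44, which fell, did hold a match. Sequences are from RefSeq (GRCh38.p14), read 5′ to 3′ along the gene, with each match to a simple form of the interferon-stimulated response element, GAAA, any 2 bases and GAAA again, in capitals. Matches on the opposite strand read TTTC, any 2 bases and TTTC.
SOCS1, chr16:11256205-11256454, minus strand: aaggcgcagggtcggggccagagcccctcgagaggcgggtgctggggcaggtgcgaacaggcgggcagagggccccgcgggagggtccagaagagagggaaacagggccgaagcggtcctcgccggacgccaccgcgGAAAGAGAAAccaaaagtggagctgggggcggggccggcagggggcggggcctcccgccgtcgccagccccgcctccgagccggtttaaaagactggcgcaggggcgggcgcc
IFIT3, chr10:89327747-89327996, plus strand: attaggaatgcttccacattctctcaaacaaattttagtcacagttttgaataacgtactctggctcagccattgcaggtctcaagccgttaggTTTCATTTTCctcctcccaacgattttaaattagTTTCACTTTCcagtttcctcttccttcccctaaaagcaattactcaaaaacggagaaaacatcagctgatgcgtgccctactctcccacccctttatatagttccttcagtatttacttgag
IFIT1, chr10:89392373-89392622, plus strand: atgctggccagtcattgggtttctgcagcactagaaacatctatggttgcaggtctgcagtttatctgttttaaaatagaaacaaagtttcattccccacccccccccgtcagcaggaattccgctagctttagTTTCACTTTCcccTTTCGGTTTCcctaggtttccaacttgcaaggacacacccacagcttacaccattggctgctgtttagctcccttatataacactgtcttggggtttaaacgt
SOCS1 held 1 match, IFIT3 held 2 and IFIT1 held 2. The motif was searched on both strands, and 1014 of 27305 genes with a sequence in the table (3.71%) held it before at least 1 of their starts. Among tested interferon genes 22 of 28 had a sequence, and 13 of those (59.1%) held a match. A match describes the letters and not binding.

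Genes of cell death are given next. BMF, a BH3-only protein that releases the brake on apoptosis, was at 8.87, 10.1 and 9.83 TPM in gARID1A_1B against 0.783, 0.657 and 0.484 TPM in gARID1A. With gAAVS1 at 1.20, 1.07 and 0.867 TPM, gARID1A lay slightly under gAAVS1 (-0.32, adjusted p = 0.024) and gARID1A_1B far above both. Its change was 2.69 ± 0.10 (adjusted p = 2.8e-14). Of 15 BCL2 family genes tested 2 rose and 4 fell, with a median of 0.02 that was -0.01 without gARID1A_1B replicate 2. Those higher were 1 without gARID1A_1B replicate 2, gARID1A replicate 2 or gARID1A replicate 3, and 4 with mitochondrial genes left out or with limma-voom. BBC3, another BH3-only gene, rose by 0.50, while the survival genes BCL2 (4.33 ± 0.416 TPM in gARID1A_1B against 6.57 ± 0.676 TPM in gARID1A, -0.51 ± 0.14, adjusted p = 0.011) and BCL2L1 (-0.38) and the BH3-only gene PMAIP1 (-0.71) fell. The PMAIP1 call was lost in a fit of only these groups (adjusted p = 0.059). The BCL2 call was lost without gARID1A replicate 1 (-0.44).

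BTG2, an antiproliferative gene, was at 27.1, 31.7 and 31.1 TPM in gARID1A_1B against 8.18, 9.55 and 8.02 TPM in gARID1A, with gAAVS1 at 8.00, 7.92 and 8.81 TPM. The gARID1A and gAAVS1 libraries overlapped and gARID1A_1B stood apart, with a BTG2 increase of 1.69 ± 0.10 (adjusted p = 6.6e-11).

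The other large increases were in genes of varied function and level. FBP1, an enzyme of gluconeogenesis, was at 4.76, 5.07 and 5.53 TPM in gARID1A_1B against 0.288, 0.125 and 0.139 TPM in gARID1A (2.37 ± 0.09, adjusted p = 9e-14). S100A4, a calcium-binding protein linked to cell motility, was at 12.8, 11.8 and 13.4 TPM in gARID1A_1B against 2.48, 2.15 and 2.19 TPM in gARID1A (2.06 ± 0.13, adjusted p = 1.7e-10), and gAAVS1 was at 2.17 ± 0.289 TPM. Neither gene had moved with ARID1A guides alone by a called amount. STS, a steroid sulfatase, rose by 1.94, the cell-surface glycoprotein CD248 by 1.89, the amino acid transporter SLC7A8 by 1.79, the neuroligin NLGN4X by 1.77 and the translation factor EEF1A2 by 1.72. STS overlaps PUDP, at a mean of 29.9 TPM over the Jurkat libraries, and reads from the shared stretch cannot be separated without strand. SOSTDC1, a secreted inhibitor of BMP and WNT signals, was the most abundant of the 12 largest increases in all 3 groups, at 127, 125 and 117 TPM in gARID1A_1B against 43.8, 35.0 and 33.1 TPM in gARID1A and 27.8, 24.3 and 21.4 TPM in gAAVS1 (1.70 ± 0.11, adjusted p = 2.3e-10).

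**Figure D3:**
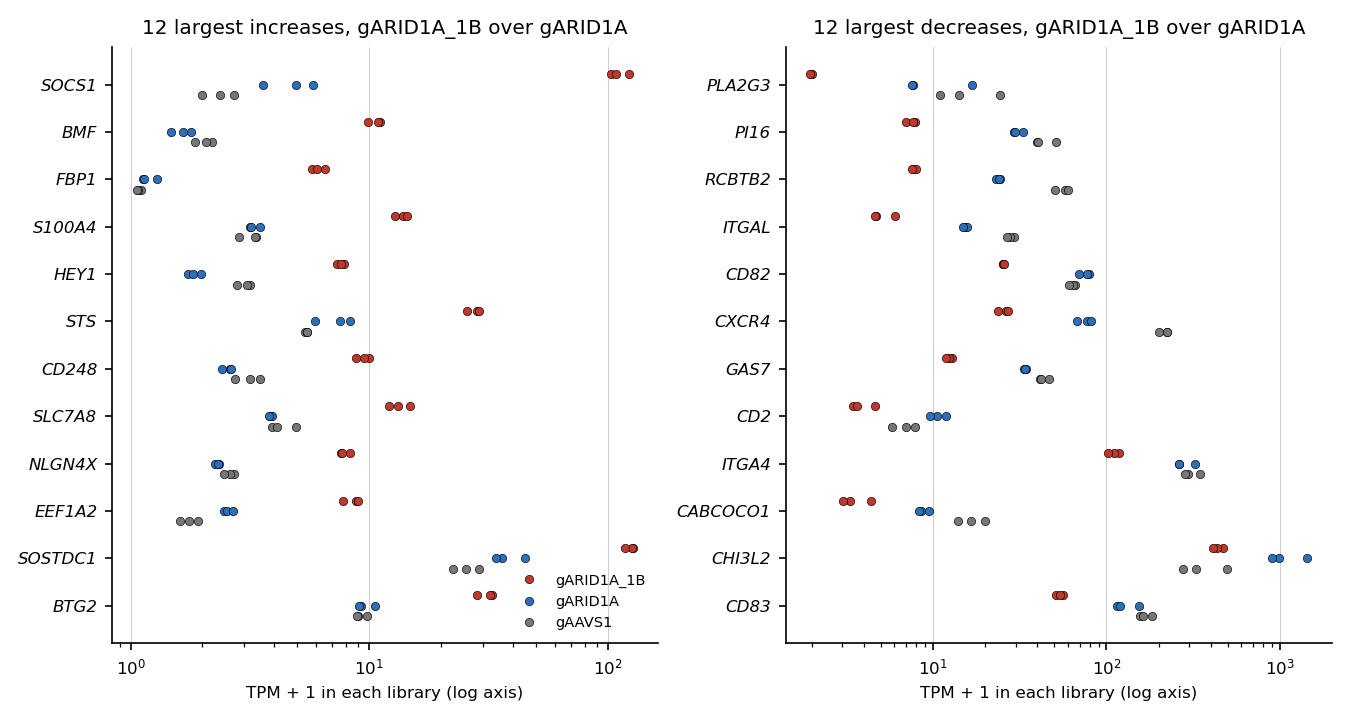
TPM + 1 in each library (points, log axis) of gARID1A_1B, gARID1A and gAAVS1 for the 12 largest increases (left) and 12 largest decreases (right). In all 24 genes the gARID1A_1B libraries lie beyond the gARID1A libraries, as the choice of genes required, while gAAVS1 lies beyond gARID1A on the far side for CXCR4 at 215 TPM and on the near side for CHI3L2 at 364 TPM.

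Several of the largest decreases were in genes of lymphocyte migration and surface identity. Of 18 tested genes for chemokine receptors and homing, 7 fell and 1 rose, with a median of -0.27 (-0.67 with a pseudocount of 0.1, -0.79 with limma-voom). CXCR4, the receptor that retains T-ALL cells in the bone marrow niche, was at 25.3, 22.8 and 26.2 TPM in gARID1A_1B against 66.3, 76.4 and 80.0 TPM in gARID1A and 201, 223 and 222 TPM in gAAVS1. The 3 groups were separate and each step was near 3-fold, -1.55 ± 0.11 for the added guides (adjusted p = 1.7e-09) and -1.52 ± 0.11 for ARID1A guides over gAAVS1 (adjusted p = 2e-09). ITGAL, the alpha chain of the integrin LFA-1, had the same stepped order at 5.05, 3.72 and 3.65 TPM in gARID1A_1B, against 14.4, 14.7 and 14.0 TPM in gARID1A and 27.0 ± 1.39 TPM in gAAVS1 (-1.59 ± 0.12, adjusted p = 2.1e-09).

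ITGA4, the alpha chain of the integrin VLA-4, was at 117, 109 and 102 TPM in gARID1A_1B against 323, 261 and 262 TPM in gARID1A, while gAAVS1 at 343, 295 and 281 TPM overlapped gARID1A. The added guides thus went with -1.35 ± 0.11 (adjusted p = 7.4e-09) where ARID1A guides alone had given -0.12 (adjusted p = 0.47). CERKL, which overlaps ITGA4 on chromosome 2, changed by -1.24, and reads from the 2 genes cannot be fully separated without strand. SELPLG, a selectin ligand, fell by 0.70 and KLF2, a transcription factor for homing genes, by 0.84. ITGB1 was the member that rose (0.32).

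T cell receptor and identity genes were split, with 16 of 31 tested members lower, 8 higher and 7 not called, and a median of -0.36. CD2, an adhesion receptor, was at 3.67, 2.47 and 2.65 TPM in gARID1A_1B against 11.0, 9.50 and 8.59 TPM in gARID1A (-1.45 ± 0.22, adjusted p = 8.4e-05). CD1E, a lipid-antigen protein of cortical thymocytes, fell by 1.26, CD1D by 1.04 and CD28, a costimulatory receptor, by 1.11. The signalling genes LAT, ZAP70, LCP2 and LCK fell by 0.50, 0.39, 0.37 and 0.27. The CD3 chains went the other way, with CD3G at 165, 175 and 170 TPM in gARID1A_1B against 107, 110 and 104 TPM in gARID1A and 103, 110 and 101 TPM in gAAVS1 (0.66 ± 0.05, adjusted p = 2.4e-09). CD3E rose by 0.33 and CD3D by 0.20, and the coreceptor CD4 rose by 1.18.

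RAG1, a subunit of the recombinase that assembles receptor genes, was at 9.64, 10.4 and 8.77 TPM in gARID1A_1B against 3.21, 3.36 and 2.91 TPM in gARID1A (1.35 ± 0.14, adjusted p = 2.6e-07). In gAAVS1 it was at 10.2, 11.1 and 10.4 TPM, so the ARID1A guides alone stood apart and the double-guide libraries lay close to the control (-0.12, adjusted p = 0.5). CHI3L2, a secreted chitinase-like protein, showed the same order turned round, at 438 ± 28.4 TPM in gARID1A_1B, 1106 ± 288 TPM in gARID1A and 364 ± 115 TPM in gAAVS1. Its change was -1.31 ± 0.28 (adjusted p = 0.0021). CD28 was also highest in gARID1A, with 2.43 TPM in gARID1A_1B, 6.45 TPM in gARID1A and 2.71 TPM in gAAVS1, and its gARID1A_1B and gAAVS1 libraries overlapped.

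The other large decreases included secreted and surface proteins. PLA2G3, a secreted phospholipase, was at 0.991, 1.02 and 0.969 TPM in gARID1A_1B against 15.8, 6.70 and 6.62 TPM in gARID1A, where replicate 1 was far above the others (-2.32 ± 0.31, adjusted p = 1.7e-05). PI16, a peptidase inhibitor, was at 6.94, 6.01 and 6.64 TPM in gARID1A_1B against 32.0, 28.3 and 28.8 TPM in gARID1A (-2.03 ± 0.22, adjusted p = 1.2e-06). RCBTB2 fell by 1.62, after a fall of 1.23 with ARID1A guides alone. CD82, a tetraspanin, was at 24.5 ± 0.242 TPM in gARID1A_1B against 74.4 ± 5.08 TPM in gARID1A and 62.6 ± 2.54 TPM in gAAVS1 (-1.56 ± 0.10, adjusted p = 4.9e-10). GAS7 fell by 1.45, CABCOCO1 by 1.32 and CD83, an activation marker of lymphocytes, by 1.26.

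Among 23 transcription factors of T-ALL tested, 10 fell and 4 rose, with a median of -0.03 that was 0.02 with mitochondrial genes left out, -0.09 with a pseudocount of 0.1 or without gARID1A_1B replicate 3 and -0.27 with a filter of 5 TPM. MYB, a factor that cooperates with TAL1 at leukaemic enhancers, was at 147, 139 and 131 TPM in gARID1A_1B against 282, 234 and 225 TPM in gARID1A and 278, 252 and 250 TPM in gAAVS1. It fell by 0.82 ± 0.09 (adjusted p = 1.9e-06) with the added guides and had not moved with ARID1A guides alone by a called amount (-0.08, adjusted p = 0.6). MYB overlaps LOC105378011, at a mean of 193 TPM over the Jurkat libraries, and reads from the shared stretch cannot be separated without strand. TAL1, the driver oncogene of Jurkat, was at 61.9, 59.3 and 55.6 TPM in gARID1A_1B against 85.8, 79.6 and 78.0 TPM in gARID1A and 65.0, 60.5 and 60.8 TPM in gAAVS1. The drop of 0.46 ± 0.07 (adjusted p = 0.00013) left it near the gAAVS1 level. IKZF2, an Ikaros family factor, fell by 1.00 to 4.82 TPM, against 10.7 TPM in gARID1A and 29.4 TPM in gAAVS1. MYC fell by 0.32 to 171 ± 13.0 TPM, against 213 ± 7.88 TPM in gARID1A and 147 ± 7.37 TPM in gAAVS1.

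GATA3 (0.01, adjusted p = 0.97) and RUNX1 (0.10, adjusted p = 0.39), partners of TAL1, were not called. TCF7, a T-lineage factor, was at 2.56 ± 0.148 TPM in gARID1A_1B and 1.72 ± 0.140 TPM in gARID1A, both far under the 14.1 ± 0.440 TPM of gAAVS1 (0.39 ± 0.08, adjusted p = 0.0012). It overlaps VDAC1, an abundant gene, and the kit kept no strand. HHEX, a homeobox factor of immature T-ALL, was at 2.05, 2.13 and 1.91 TPM in gARID1A_1B against 0.211, 0.305 and 0.102 TPM in gARID1A (1.33 ± 0.13, adjusted p = 1.1e-07).

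NOTCH genes went both ways, 7 higher and 6 lower of 21 tested. Their median of 0.05 turned to -0.07 with a filter of 5 TPM, to -0.02 with median-ratio rescaling and to -0.04 without gARID1A_1B replicate 1 or gARID1A replicate 1. HEY1, a NOTCH target, was at 6.84, 6.33 and 6.64 TPM in gARID1A_1B against 0.965, 0.734 and 0.817 TPM in gARID1A (2.05 ± 0.12, adjusted p = 6.9e-11), and NRARP, a feedback inhibitor of NOTCH, rose by 0.93. HES1, also a NOTCH target, fell to 9.07, 9.52 and 8.92 TPM in gARID1A_1B, against 17.4, 19.6 and 19.2 TPM in gARID1A (-0.95 ± 0.11, adjusted p = 2.5e-06). The receptors NOTCH1 (0.05, adjusted p = 0.76) and NOTCH3 (-0.16, adjusted p = 0.56) were not called. NOTCH3 was at 5.99 TPM in gARID1A_1B and 6.80 TPM in gARID1A, against 18.9 TPM in gAAVS1, so both groups lay under the control.

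**Figure D4:**
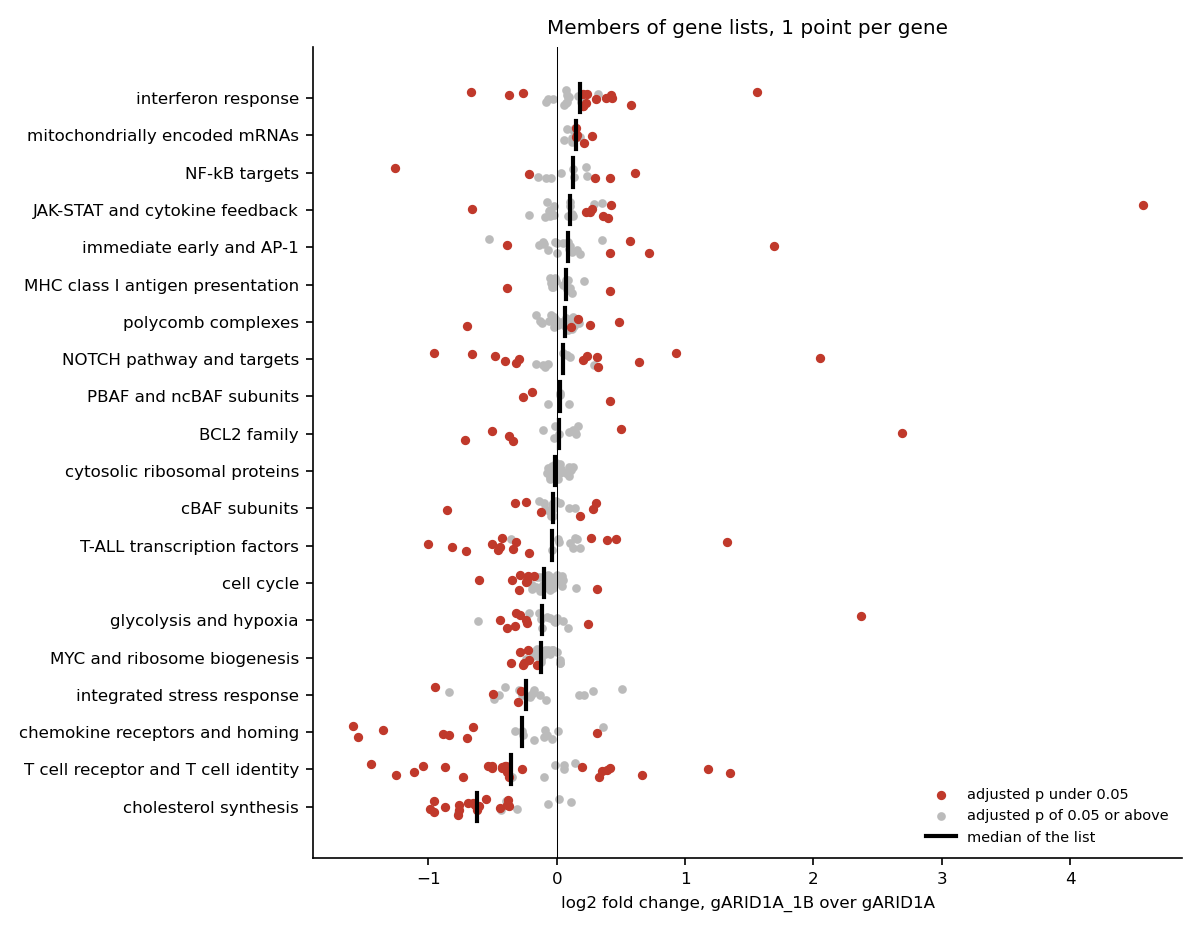
Log2 fold change of gARID1A_1B over gARID1A for every tested member of 20 gene lists (points; red at an adjusted p under 0.05) with the median of each list as a black bar, ordered by median. Cholesterol synthesis has the lowest median, -0.62, while single genes such as SOCS1 at 4.56 and BMF at 2.69 stand far from the medians of their lists.

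Genes of cholesterol synthesis had a median of -0.62, with 18 of 25 tested members lower and 0 higher. HMGCS1, an early enzyme of the pathway, was at 195, 187 and 168 TPM in gARID1A_1B against 532, 319 and 283 TPM in gARID1A and 563, 316 and 376 TPM in gAAVS1 (-0.99 ± 0.26, adjusted p = 0.0088). INSIG1, which holds the pathway's activator in the ER, was at 162, 157 and 139 TPM in gARID1A_1B against 412, 270 and 234 TPM in gARID1A (-0.96 ± 0.19, adjusted p = 0.001). Replicate 1 was the highest library of gARID1A and of gAAVS1 for both genes. Summed over the list, TPM was 2938 to 3244 in gARID1A_1B, against 6355, 4525 and 4153 in gARID1A. Without gARID1A replicate 1 the members called lower were 10, their median was -0.46 and the HMGCS1 call was lost. The groups still did not overlap for HMGCS1 and INSIG1. Integrated stress response genes had 4 of 20 lower and 0 higher (median -0.24), but 1 lower without gARID1A replicate 1. For glycolysis and hypoxia 7 of 22 genes fell and 2 rose (median -0.12), with ENO2 lower by 0.44 and FBP1 the largest increase, and 1 rose without gARID1A_1B replicate 1 or gARID1A replicate 3.

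Growth genes shifted slightly. Of 34 cell cycle genes 8 fell and 1 rose, with a median of -0.10. CCND3, a G1 cyclin used in thymocytes, was at 81.5, 92.0 and 82.2 TPM in gARID1A_1B against 125, 134 and 130 TPM in gARID1A (-0.60 ± 0.15, adjusted p = 0.0076), and CCND2 was the increase (54.0 TPM in gARID1A_1B against 43.3 TPM in gARID1A, 0.31). Of 28 genes of MYC and ribosome biogenesis 7 fell and 0 rose (median -0.13), which became 12 without gARID1A replicate 1, 2 without gARID1A replicate 2, 3 without gARID1A replicate 3 or gARID1A_1B replicate 1, and 3 with mitochondrial genes left out. Of the 28 cytosolic ribosomal protein genes 0 were called (median -0.01), but 5 were higher with mitochondrial genes left out (median 0.03). Mitochondrially encoded mRNAs had 5 of 13 higher and 0 lower (median 0.15), with 2 higher after median-ratio rescaling, without gARID1A_1B replicate 3 or without gARID1A replicate 2.

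The remaining lists changed in few members. Among 27 polycomb genes 4 rose and 1 fell, with CBX8 higher by 0.48 and JARID2 lower by 0.70. Those higher were 2 without gARID1A_1B replicate 2, gARID1A replicate 1 or gARID1A replicate 2, 8 with mitochondrial genes left out and 9 with limma-voom. NF-kB targets had 3 of 13 higher and 2 lower, led by RELB (0.61) and CD83, but 1 lower whichever library was left out and 6 higher with limma-voom. Of 21 immediate early and AP-1 genes 4 rose and 1 fell (0 without any of 4 libraries in turn, and 2 rose with a filter of 5 TPM), with ZFP36, which destabilises short-lived mRNAs, at 42.1 TPM in gARID1A_1B against 28.0 TPM in gARID1A (0.57 ± 0.11, adjusted p = 0.0006). MHC class I genes had 1 of 17 higher (HLA-E, 0.42, a call lost when any of 4 libraries was left out) and 1 lower (CALR, -0.39). Among markers of other cell types, KRT18 rose by 0.68 and CR2 (-0.40), COL1A1 (-0.39, a call lost without gARID1A replicate 1) and VIM (-0.24) fell, while the tested myeloid, erythroid and megakaryocyte markers gave no call. The T-lineage markers had 4 higher and 5 lower of 11.

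Position on chromosome 6 went with a small shift. Of 53 tested genes between ARID1B and the 6q end, 19 were called lower (35.85%, beside 10.6% over all genes) and 4 higher, and 40 lay below 0. Their median was -0.16, while 274 genes on the centromere side of ARID1B on 6q had a median of 0.0023 and whole-chromosome medians ran between -0.02 and 0.02. With no filter on low values the region held 144 genes with a median of 0.0038, 17 called lower and 11 higher, so the shift was measured in genes that pass the filter. With a filter of 5 TPM the median was -0.18 over 40 genes, with 18 lower and 2 higher. The 4 called higher were 2 without gARID1A_1B replicate 1. In single libraries, relative to the gARID1A mean, the median of the 53 genes was -0.11, -0.13 and -0.19 in gARID1A_1B against 0.0090, -0.02 and -0.01 in gARID1A. It was 0.02, 0.01 and -0.05 in gAAVS1. The 3 gARID1A_1B libraries were the lowest. Genes lowered there included PDCD2, 13.8 Mb from the start of ARID1B and near the 6q end, at 41.9, 43.6 and 43.3 TPM in gARID1A_1B against 52.0, 52.0 and 54.0 TPM in gARID1A (-0.29 ± 0.04, adjusted p = 1.3e-05). In gAAVS1 PDCD2 was at 46.0, 46.9 and 44.7 TPM, and gARID1A lay above it (0.19, adjusted p = 0.00087). PDCD2 was not called in gARID1A_1B against gAAVS1 (-0.09, adjusted p = 0.06). TCP1, a chaperonin subunit, fell by 0.40, SFT2D1 by 0.35 and MAP3K4 by 0.28. ACAT2 of the cholesterol list also lies there. In gSMARCA4_A2 against gSMARCA4, TCP1 (-0.31), MAP3K4 (-0.15) and PDCD2 (-0.14) were also called lower, and SFT2D1 higher (0.13). The median of the 53 genes in that comparison was 0.04, with 11 lower (20.75%, beside 12.3% over all genes) and 18 higher (beside 26.5% over all genes). After 8 days in BRM014 against DMSO, TCP1 (-0.29), MAP3K4 (-0.40) and PDCD2 (-0.12) were called lower, and SFT2D1 higher (0.20). In gARID1A against gAAVS1 the median of the 53 genes was 0.0014 with 4 lower (13.2% over all genes), and in gARID1A_1B against gAAVS1 it was -0.14 with 24 lower (23.1%). This region was picked after its values were seen and has no test, and DNA copy number was not measured.

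**Figure D5:**
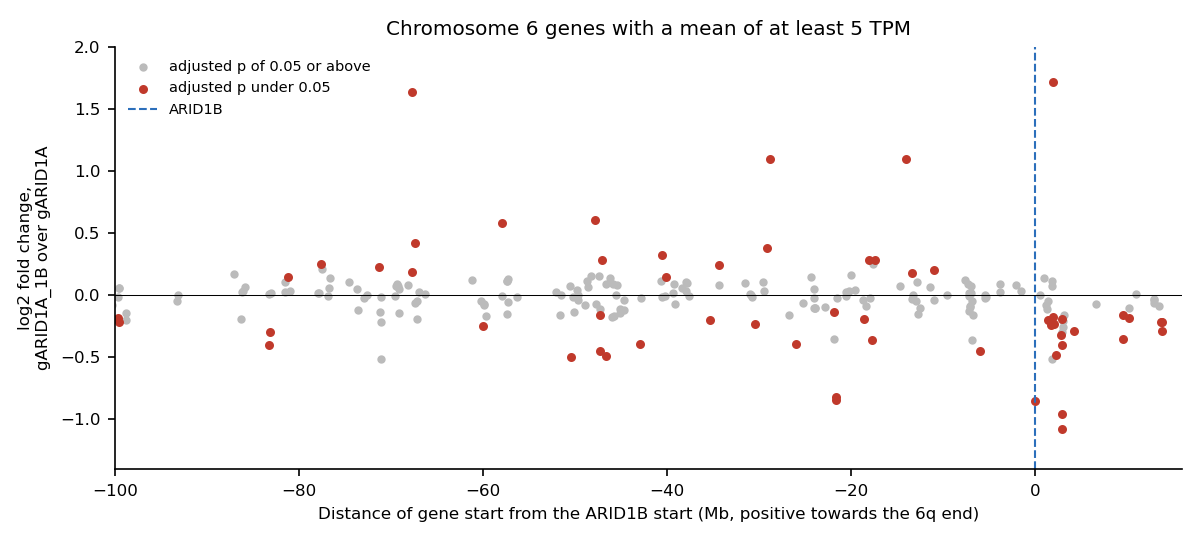
Log2 fold change of gARID1A_1B over gARID1A for genes of chromosome 6 with a mean of at least 5 TPM (points; red at an adjusted p under 0.05) against the distance of the gene start from the ARID1B start in Mb, positive towards the 6q end and drawn from -100 to 16 Mb. Most points right of the dashed line at ARID1B lie below 0, with a median of -0.16 over all 53 tested genes, and points left of it spread about 0.

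Targets of the other guide sets gave further values. On 1p beyond ARID1A, targeted in both groups, 327 genes had a median of 0.06 in gARID1A_1B against gARID1A. Of these, 53 were higher (beside 10.3% over all genes) and 20 lower (6.12%, beside 10.6%). In gARID1A against gAAVS1 their median was -0.12, with 15 higher and 93 lower (28.44%, beside 13.2%). Over all 17936 genes tested, 1385 were called higher in gARID1A than in gAAVS1. On 19q beyond PPP1R12C, the gene that holds the AAVS1 site, 116 genes had a median of -0.0079 in gARID1A_1B against gARID1A. Of these, 8 were higher (beside 10.3% over all genes) and 10 lower (8.62%, beside 10.6%). In gARID1A against gAAVS1 their median was 0.18, with 48 of 116 higher (beside 1385 of 17936 over all genes) and 4 lower (3.45%, beside 13.2%).

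Comparisons that share no library with this one give values for the same genes. In gSMARCA4_A2 against gSMARCA4, which adds the second ATPase, 51 of the 71 genes at least 2-fold higher here were called higher and 2 lower, where 26.5% and 12.3% of all genes were. Of the 49 genes at least 2-fold lower here, 11 were lower there and 2 higher. After 8 days in BRM014 against DMSO, 54 of the 71 were higher and 8 lower, where 36.9% and 23% of all genes were. Of the 49, 37 were lower and 7 higher. After 6 h, 16 of the 71 were higher and 16 lower (26.8% and 20.7% of all genes), while 34 of the 49 were already lower and 1 higher. At 2-fold or more, 21 genes were higher with both the second ARID1 guides and the second ATPase guides, 29.6% of the 71 and 13.3% of the 158 (0.881% of all genes). For decreases it was 1 gene, 2.04% of the 49 and 4.76% of the 21 (0.117% of all genes).

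The effects of the second ARID1 guides and the second ATPase guides were also tested against each other, as (gARID1A_1B minus gARID1A) minus (gSMARCA4_A2 minus gSMARCA4). The difference was called in 2517 genes (14%), 785 positive (4.38%) and 1732 negative (9.66%), and 1443 positive and 1124 negative after median-ratio rescaling. SOCS1 led with a difference of 4.52 ± 0.31 (adjusted p = 4.2e-09). It was at 10.3, 9.48 and 10.9 TPM in gSMARCA4_A2 against 7.33, 10.6 and 12.4 TPM in gSMARCA4, overlapping groups with no called change (0.04, adjusted p = 0.9). BMF rose with both second guides, by 2.69 with ARID1 and by 0.98 with the ATPase, and the difference of 1.72 ± 0.14 was called (adjusted p = 2.2e-08). CXCR4 stayed at 32.2 ± 1.63 TPM in gSMARCA4_A2 and 32.4 ± 1.62 TPM in gSMARCA4 (-0.01, adjusted p = 0.96), and its difference was -1.54 ± 0.16 (adjusted p = 9.3e-07). Both ATPase groups lay far under the 215 TPM of gAAVS1, and gARID1A_1B was at 24.7 TPM. CXCR4 was thus already low with SMARCA4 guides alone. SOSTDC1 rose by 1.70 and by 1.68, and the difference of 0.03 ± 0.15 was not called (adjusted p = 0.92).

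Interferon genes differed between the pairs of effects. With the second ATPase guides 4 of 28 rose and 16 fell (median -0.28), and the difference was positive in 13 and negative in 2, with a median of 0.38 beside -0.07 over all genes tested. IFIT3 was at 2.67, 2.43 and 2.33 TPM in gSMARCA4_A2 against 5.01, 4.82 and 4.32 TPM in gSMARCA4 (-0.72 ± 0.10, adjusted p = 1.1e-05), and its difference was 2.28 ± 0.14 (adjusted p = 3e-10). Both ATPase groups lay above the gAAVS1 level of IFIT3 given earlier. IFIT1 had the same order, at 2.45 TPM in gSMARCA4_A2, 3.35 TPM in gSMARCA4 and 1.26 TPM in gAAVS1. SAMD9L did too, at 8.20, 13.15 and 5.76 TPM. OAS2 in gSMARCA4_A2 lay under gAAVS1 (1.62 against 2.44 TPM). Cell cycle genes had a positive difference in 17 of 34 and a negative one in 0, and 26 fell with the second ATPase guides and 0 rose. These directions held after median-ratio rescaling, with 15 positive and 1 negative for interferon genes and 24 and 0 for cell cycle genes, and with mitochondrial genes left out (13 and 2, 20 and 0).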

How the data were processed

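RNA-seq libraries of Jurkat cells were compared, 3 per group. The authors deposited TPM per gene. Per the submitters' processing notes, HISAT2 2.2.1, featureCounts 2.0.3, DESeq2 1.38.2 and hg38 were named; how the TPM were computed is not given in the sources used here. TPM multiplied by gene length and scaled gave whole reads within 0.01 for 100% of values, which set the depths.

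A gene was tested if 3 or more of 27 Jurkat libraries reached 1 TPM (17936 of 38557 genes), as log2(TPM + 1) with limma 3.58.1 in R 4.3.3, with all 9 Jurkat groups in 1 fit (18 residual degrees of freedom), an intensity trend, robust moderation and Benjamini-Hochberg adjustment over all genes tested. Every adjusted p is from that fit unless another is named. The script was tested on simulated data. Positions and promoter sequences were matched by symbol to RefSeq (34951 symbols matched) with Python 3.11.15. An exact permutation test of 3 against 3 libraries cannot go below 0.1, so none is given.

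Genes named were the 12 largest increases and 12 largest decreases that were protein-coding, called at 0.05, averaged 5 TPM or more in the group where they were higher and had no overlap between libraries. Added to them were the 4 largest positive and 4 largest negative differences from the second-ATPase effect, up to 3 members of each list and a fixed set of subunits and T-ALL genes. Further genes were named after their values were seen: CERKL, LIPA, TCP1, PDCD2, SFT2D1, MAP3K4, CD4, KLF2, CD1D, JAK1, SOCS5, SAMD9L, OAS2, IFIT1, BBC3, BCL2L1, LAT, ZAP70, LCP2, LCK, CD3D, CD3E and those of the chromosome 22 stretch. A few genes this rule names, and 1 list, are not reported here. The members and lists were chosen with earlier results of these data known. Alternatives were the pseudocount, the filter, median-ratio rescaling, leaving out mitochondrial genes, the variance model, fitting only the groups compared, a block for the replicate number, limma-voom on recovered reads, a fold threshold and leaving out each library.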

Additional observations from a re-analysis of the deposited data

Results flagged for a closer look

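The effect of the second ARID1 guides differed from that of the second ATPase guides in 2517 genes by limma's test of the difference itself, and 7 protein-coding genes from the ends of it are given here. A positive difference means a larger log2 change in gARID1A_1B over gARID1A than in gSMARCA4_A2 over gSMARCA4. The causes were not tested.

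SOCS1 (difference 4.52) and IFIT3 (2.28) are described above. S100A4 differed by 2.01, with 0.597, 0.594 and 0.773 TPM in gSMARCA4_A2 against 0.807, 0.384 and 0.644 TPM in gSMARCA4, overlapping groups far under the 12.6 TPM of gARID1A_1B. KRT1, a keratin, differed by 1.91. It was at 14.8, 12.1 and 14.2 TPM in gARID1A_1B against 5.08, 5.51 and 5.11 TPM in gARID1A, and at 2.66, 2.29 and 1.95 TPM in gSMARCA4_A2 against 5.09, 4.05 and 3.72 TPM in gSMARCA4.

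PLA2G3 differed by -2.14, with 0.357, 0.444 and 0.392 TPM in gSMARCA4_A2 against 1.08, 0.335 and 0.421 TPM in gSMARCA4, so the gene was low in both. Its difference was not called with limma-voom. ALDH1A2, which makes retinoic acid, differed by -2.07. It fell by 0.65 with the second ARID1 guides, at 248, 222 and 207 TPM in gARID1A_1B against 428, 339 and 307 TPM in gARID1A, and rose by 1.42 with the second ATPase guides, at 629, 611 and 594 TPM in gSMARCA4_A2 against 266, 216 and 206 TPM in gSMARCA4. The cytotoxic granule protease GZMA differed by -2.01, falling by 1.05 with the second ARID1 guides and rising by 0.96 with the second ATPase guides.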

How the results depend on the processing

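None of the 90 genes named turned its direction while called, under any alternative run for them. List medians near 0 did turn sign, as given above for NOTCH, BCL2 family, T-ALL and 6q genes, and so did the balance of directions for the difference from the second-ATPase effect. At a fold threshold of at least 2, 120 genes were called, 71 higher and 49 lower, and these counts moved with how low values were treated: 189 higher and 103 lower with a pseudocount of 0.1, and 252 higher and 106 lower with limma-voom. Leaving out 1 library gave 2746 to 3238 genes called, 1241 to 1617 higher and 1205 to 1684 lower, with 70 to 78 and 41 to 58 at 2-fold or more. ARID1B ran between -0.91 and -0.80 and ARID1A between 0.25 and 0.32, and both were called each time. Of 90 genes named, 80 (without gARID1A replicate 1) to 87 kept their side of the threshold when 1 library was left out. For the difference from the second-ATPase effect, leaving out 1 library gave 1697 to 2386 genes, 537 to 752 positive and 1080 (without gARID1A_1B replicate 3) to 1678 negative, and 1152 negative without gSMARCA4_A2 replicate 1. Median-ratio rescaling gave 1443 positive and 1124 negative. Replicate numbers did not pair the libraries (correlations of 0.032, 0.014 and 0.0063 for the ARID1 groups, where replicate 3 correlated best with number 2). With the number as a replicate block, 2703 genes were called, 1279 of them higher, the calls of BRD9, COL1A1 and PMAIP1 were lost, and the difference was called in 3992 genes, 1237 positive and 2755 negative. Depth limits genes with few reads, such as HHEX with 3 to 10 reads per gARID1A library and FBP1 with 4 to 8.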

Other observations

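A short stretch of chromosome 22 (23359606 to 23547306, hg38, 188 kb) held 4 tested genes with a RefSeq position, and all 4 were called higher in gARID1A_1B than in gARID1A. The stretch was chosen after its values were seen and has no test. A gene was tested only with 1 TPM or more in 3 Jurkat libraries. CES5AP1 and PCAT14 reached 1 TPM only in gARID1A_1B and gSMARCA4_A2, and ZDHHC8P1 only in these groups and gSMARCA4. Genes that stayed low in every group were not tested. The filter thus partly set that all 4 were higher, here and in gSMARCA4_A2. ZDHHC8P1, a pseudogene, was at 6.71, 4.91 and 3.98 TPM in gARID1A_1B against 0.167, 0.114 and 0.103 TPM in gARID1A, with 383 to 562 reads per gARID1A_1B library against 9 to 14 per gARID1A library. LINC01659, a long noncoding RNA, was at 8.26, 7.21 and 6.44 TPM in gARID1A_1B against 1.72, 0.946 and 1.05 TPM in gARID1A. The pseudogene CES5AP1 had 131, 86 and 88 reads in gARID1A_1B against 1, 2 and 1 in gARID1A. PCAT14, a noncoding RNA, had 76, 63 and 57 reads in gARID1A_1B against 1, 2 and 5 in gARID1A.

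All 4 were also higher in gSMARCA4_A2 than in gSMARCA4, by 1.24 for CES5AP1, 0.70 for ZDHHC8P1, 0.70 for LINC01659 and 0.78 for PCAT14 on the log2(TPM + 1) scale. Of the genes on either side, BCR was at 49.8 TPM in gARID1A_1B against 66.7 TPM in gARID1A (-0.41) and IGLL1 was not called (-0.18).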
